A study of Mus musculus with 12 samples.

Results

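The lungs of mice fed a 60% fat diet were set against those of mice fed a 10% fat diet, both kept in room air, with 3 libraries in each group. These 6 libraries were chosen by their diet and exposure labels out of 12 in the series, and the comparison covers 13324 of the 20793 entries of the deposited gene table, those that reached an RPKM of 1 (reads scaled to transcript length and to the reads of the library) in 3 or more of the 12 libraries and had enough values to test. All mice were C57BL/6J, an inbred strain that carries no engineered allele here by the labels, and RNA was taken from whole frozen lungs. The 60% fat group and the 10% fat group had each been on their diet for 12 weeks and breathed room air. The other 2 groups, 60% fat and 10% fat lungs exposed to more than 95% oxygen, served in the estimate of the spread and for a side-by-side view of the diet difference under oxygen. Whether the diet came before or after the exposure, the age and sex of the mice, and whether each library came from a separate animal are not given in the labels, so the p-values rest on sample-to-sample spread that could be purely technical. A library is called a lung below for short, which does not mean a separate animal.

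A diet rich in fat changes the fuel that reaches the lung. Alveolar type 2 cells make surfactant lipid, partly from fatty acids that they build themselves with fatty acid synthase and stearoyl-CoA desaturase, while many lung cells burn fatty acids in mitochondria under control of the PPAR transcription factors. The lung also holds resident and passing immune cells, among them B cells, which signal through the B cell receptor and are drawn into follicles by the receptor CXCR5, and it keeps proteins folded with chaperones of the cytosol, governed by HSF1, and of the endoplasmic reticulum, governed by the unfolded protein response.

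Read depth was worked out roughly from long transcripts, by taking a low RPKM value as a single read and keeping results within a preset range. It was 22.3 to 25.5 M reads per library on 60% fat and 23.0 to 25.4 M on 10% fat. The preset range limits how far these values could differ. Depth limits the precision of genes with few reads. The 6 libraries correlated with each other at Pearson's r from 0.973 to 0.988 across genes. Defining genes of the lung epithelium were abundant in all of them, with Sftpc of alveolar type 2 cells between 20649 and 31811 RPKM on 60% fat and between 20361 and 27979 RPKM on 10% fat. The club cell gene Scgb1a1 alone took 18.1% to 24.6% of the summed RPKM on 60% fat and 17.4% to 22.8% on 10% fat, with replicate 2 highest on both diets. Libraries with the same replicate number deviated together in the 2 groups, so each result is given from a fit without pairs and, where it alters the call, from a fit with the replicate number as a block, called the paired fit. The 15 tested neutrophil genes, of which S100a8, S100a9 and Lcn2 are the most abundant, had their highest sum in replicate 3 of both diets, at 1248, 1024 and 4442 RPKM on 60% fat and 1138, 993 and 4154 RPKM on 10% fat.

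Of the 13324 genes, 13 rose and 7 fell on 60% fat at an adjusted p under 0.05 (0.0976% and 0.0525% of the genes tested), and none of these 20 had overlapping groups. Of the 13 that rose, 10 were at least 2-fold higher, and 3 of the 7 that fell were at least 2-fold lower. The paired fit called 316 genes higher and 150 lower (2.37% and 1.13%), including all 20. Without regard to any test, the 3 lungs on 60% fat were all above the 3 on 10% fat for 1147 genes (8.61%) and all below for 724 (5.43%). The median log2 difference of all tested genes was 0.02, and 56.0% of them had a positive difference. That median was -0.01 with median-ratio scaling and with quantile normalization. With quantile normalization 36 genes were called higher and 30 lower without pairs, and 284 higher and 230 lower with pairs. With median-ratio scaling the paired fit called 201 higher and 158 lower.

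These calls leaned on single libraries and on the pooled spread. Leaving out 1 lung gave 2, 353 or 5 called genes without 60% fat replicate 1, 2 or 3, and 112, 3 or 3 without 10% fat replicate 1, 2 or 3, with Lyve1 and Ccr7 called each time. Mfap4 and Rapgef5 were also among the 5. The paired fit gave 160, 639 or 58 called genes without pair 1, 2 or 3, against 466 with all pairs. Counts given below for single lists without a pair stand beside this shift over all genes. The median SD of a gene between replicates, on the log2 scale, was 0.155 on 60% fat and 0.128 on 10% fat in room air, against 0.108 and 0.104 under oxygen, and the room-air libraries fitted alone called only the pseudogene entry Rpl34-ps1. Its values were 0.00269, 0.00458 and 0.00798 RPKM on 60% fat and 8.35, 9.28 and 9.30 RPKM on 10% fat. The entry shares 3472 bases with that of the ribosomal protein gene Rpl34 in the table, which stood at 842, 1298 and 1107 RPKM on 60% fat and 795, 1016 and 889 RPKM on 10% fat, so that reads may be split between the entries and the difference is uncertain.

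**Figure D1:**
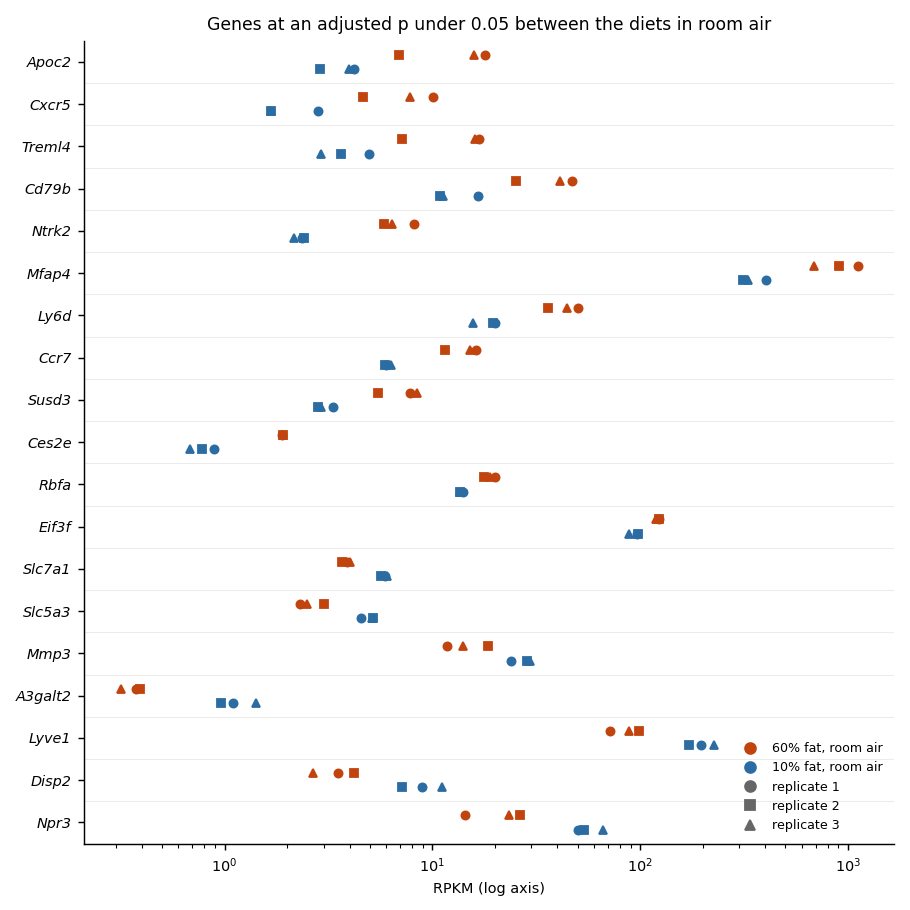
RPKM of 19 genes with an adjusted p under 0.05 in each room-air library, on a log axis, with 60% fat lungs above 10% fat lungs for each gene and a marker shape for each replicate number. The 3 lungs of one diet stand clear of the 3 of the other in each of the 19 genes, and replicate 2 on 60% fat lies nearest to the 10% fat lungs for Apoc2, Cxcr5, Treml4 and Cd79b.

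Genes of B cells and of lymphocyte homing were higher on 60% fat. In whole lung RNA, more cells of a type and more RNA per cell cannot be told apart. Cd79b, a signalling chain of the B cell receptor (chromosome 11, 106172655 to 106175843, mm9), stood at 46.9, 25.2 and 41.1 RPKM in the 60% fat lungs, against 16.5, 10.9 and 11.3 RPKM in the 10% fat lungs. Every 60% fat lung was above every 10% fat lung, and the log2 difference was 1.49 ± 0.21 (SE; 2.81-fold; adjusted p = 0.0231). Cxcr5, the receptor that guides B cells to follicles (chromosome 9, 44319870 to 44334504), had 10.1, 4.66 and 7.81 RPKM on 60% fat and 2.81, 1.68 and 1.68 RPKM on 10% fat (log2 difference 1.61 ± 0.23, adjusted p = 0.0231). Ccr7, which steers lymphocytes and dendritic cells towards lymphoid tissue (chromosome 11, 99005513 to 99016391), had 16.3, 11.5 and 15.1 RPKM on 60% fat and 6.01, 5.93 and 6.31 RPKM on 10% fat. Its 10% fat lungs lay close together and below all 60% fat lungs, and the log2 difference was 1.16 ± 0.13 (adjusted p = 0.00552).

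All 20 tested genes of the B lineage list had a positive log2 difference, against 56.0% of all genes tested. The list median was 1.01, against 0.02 for all genes tested. Of the 20, 1 was called without pairs and 13 rose in the paired fit, against 2.37% of all genes tested. Without overlap between the diets 13 were higher on 60% fat, against 8.61% of all, and none lower. Faim3, the receptor for IgM, had 23.4, 8.72 and 14.8 RPKM on 60% fat, against 6.53, 3.47 and 3.48 RPKM on 10% fat (log2 difference 1.64 ± 0.31, adjusted p = 0.0668, paired adjusted p = 0.00312). Cd79a, the partner of Cd79b, had 50.9, 19.7 and 34.5 RPKM on 60% fat and 15.6, 9.27 and 9.41 RPKM on 10% fat (1.52 ± 0.29, adjusted p = 0.0668, paired adjusted p = 0.00445). The B cell kinase Blk and the coactivator gene Pou2af1 likewise rose in the paired fit, with log2 differences of 1.36 ± 0.30 and 1.34 ± 0.29 (adjusted p = 0.0871 for both, paired adjusted p = 0.0241 and 0.0213). Pax5, the factor that keeps B cell identity, had 4.90, 1.79 and 3 RPKM on 60% fat and 1.69, 0.858 and 0.923 RPKM on 10% fat (1.12 ± 0.28, paired adjusted p = 0.0153). Ebf1, a factor of early B cells with the smallest difference of the list, overlapped between the diets, with 5.56, 2.71 and 3.29 RPKM on 60% fat and 4.65, 2.15 and 2.60 RPKM on 10% fat.

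The B lineage genes moved together across lungs as well as between diets. Replicate 2 was the lowest of the 60% fat lungs in all 20 genes, and replicate 1 the highest of the 10% fat lungs in 17 of 20. Their summed level was 291, 132 and 249 RPKM on 60% fat and 113, 76.7 and 84.2 RPKM on 10% fat, so replicate 2 on 60% fat stood only a little above replicate 1 on 10% fat. Within pairs the median log2 difference was 1.22, 0.56 and 1.35 for replicates 1, 2 and 3. The paired fit without pair 1, 2 or 3 called 5, 17 and 5 of the genes, all higher. Over all tested genes it called 101, 417 and 40 higher.

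**Figure D2:**
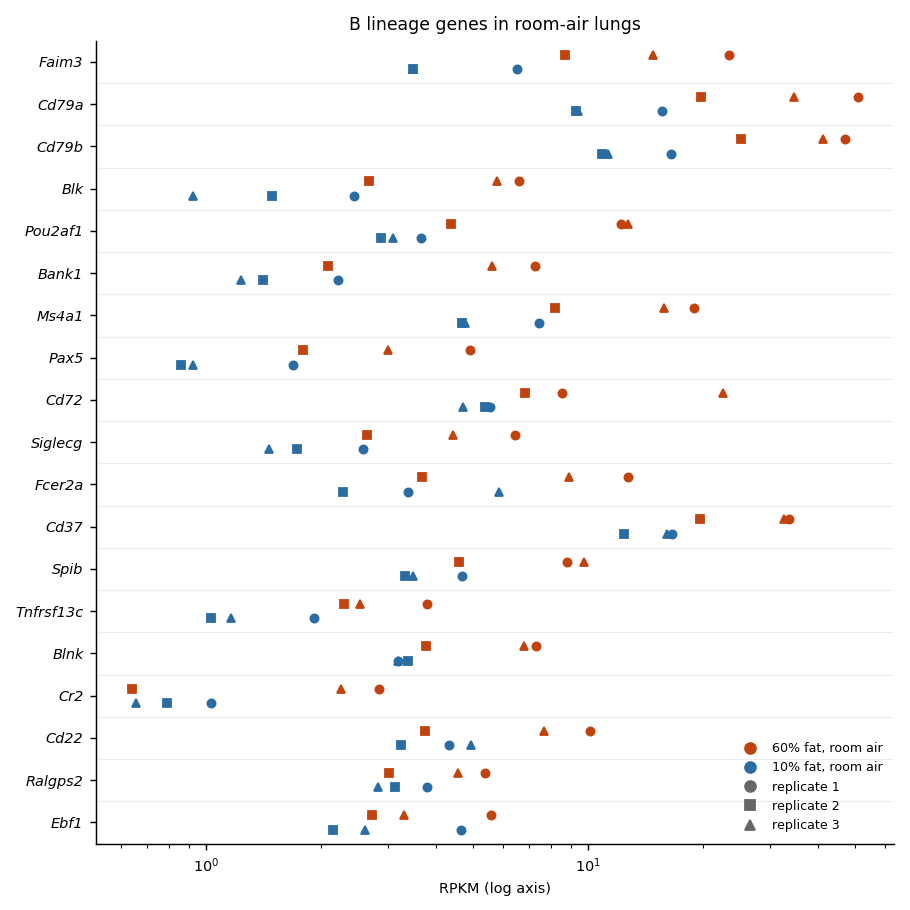
RPKM of 19 B lineage genes in each room-air library, on a log axis, ordered by their log2 difference, with 60% fat above 10% fat and a marker shape for each replicate number. Replicate 2 on 60% fat is the leftmost of the 3 lungs in all 19 genes, and Cd79a and Cd79b are the genes of the list with the highest values, at up to 50.9 and 46.9 RPKM.

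Genes of lymphoid tissue and of T and NK cells were higher in part, while plasma cell genes were split. Of 10 tested genes for follicle homing and lymphoid tissue, 2 rose without pairs and 3 with pairs, against 0.0976% and 2.37% of all tested genes. The 3 were Cxcr5, Ccr7 and the lymphotoxin gene Ltb, which helps to build lymphoid tissue. Ltb had 29.2, 20.9 and 27.1 RPKM on 60% fat and 13.7, 11.4 and 15.1 RPKM on 10% fat (log2 difference 0.91 ± 0.16, adjusted p = 0.0625, paired adjusted p = 0.0122). The follicle chemokine gene Cxcl13, the ligand of CXCR5, overlapped between the diets, with 4, 4.28 and 14.9 RPKM on 60% fat and 2.87, 9.54 and 10.6 RPKM on 10% fat. All 24 tested genes of T and NK cells were at or above 0, against 56.0% of all tested genes with a positive difference. The list had a median log2 difference of 0.38. None of its members was called without pairs and, against 2.37% of all tested genes, 5 rose with pairs. Cd8b1, a chain of the coreceptor of cytotoxic T cells, led them with 5.80, 4.56 and 5.41 RPKM on 60% fat and 2.51, 2.13 and 2.61 RPKM on 10% fat (0.98 ± 0.24, adjusted p = 0.125, paired adjusted p = 0.0108). Without pair 1, 2 or 3, the paired fit called 1, 5 and 0 of these T and NK cell genes. Of 8 plasma cell genes, Pou2af1 rose and Derl3 fell in the paired fit, against 2.37% and 1.13% of all tested genes. That fit called none of the list without pair 1 or 3. The joining chain gene Igj overlapped widely, with 10.1, 4.22 and 30.4 RPKM on 60% fat and 8.88, 41.9 and 18.7 RPKM on 10% fat.

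Further called genes are known from lymphoid or myeloid cells. Ly6d, a surface protein of early B lineage cells and some epithelia (chromosome 15, 74592486 to 74593997), had 50.4, 36.2 and 44.5 RPKM on 60% fat and 20, 19.5 and 15.7 RPKM on 10% fat (log2 difference 1.22 ± 0.17, adjusted p = 0.0212). Treml4, a receptor of myeloid cells (chromosome 17, 48403661 to 48414724), had 16.8, 7.13 and 16 RPKM on 60% fat and 4.96, 3.62 and 2.90 RPKM on 10% fat (1.61 ± 0.27, adjusted p = 0.0466). Susd3, whose product bears a sushi domain, differed by 1.12 ± 0.18 (adjusted p = 0.0313), at 7.79, 5.49 and 8.40 RPKM on 60% fat and 3.33, 2.82 and 2.91 RPKM on 10% fat. The chemokine gene Ccl5 missed the threshold without pairs and rose with them, at 112, 68.2 and 90.2 RPKM on 60% fat and 52.9, 42.0 and 32.3 RPKM on 10% fat (1.08 ± 0.20, adjusted p = 0.0672, paired adjusted p = 0.0108). Of 17 genes of dendritic cells and MHC class II, none was called without pairs. H2-Ob and Clec9a rose in the paired fit, against 2.37% of all tested genes. Without pair 1, 2 or 3 that fit called 0, 4 and 0 of the list. The list median was 0.20, with 13 of 17 positive, against 56.0% of all, and Cd209a, Zbtb46, Ciita and Xcr1 negative. H2-Ob, a regulator of antigen loading that B cells carry, had 16.7, 7.20 and 13.3 RPKM on 60% fat and 6.83, 5.01 and 3.91 RPKM on 10% fat (1.12 ± 0.27, adjusted p = 0.128, paired adjusted p = 0.0264). None of the 15 tested neutrophil genes was called in either fit, and S100a8 ran from 374 to 1687 RPKM on 60% fat and from 192 to 1248 RPKM on 10% fat, highest in replicate 3 of both diets, while Camp, a granule gene of immature neutrophils, had 13.8, 1.98 and 126 RPKM on 60% fat and 11, 3.02 and 2.05 RPKM on 10% fat. None of 31 interferon-stimulated genes was called in either fit, at a median of -0.09.

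Genes of fatty acid oxidation were higher on 60% fat for a few members. Of 35 tested genes of fatty acid oxidation and PPAR targets, 29 had a positive difference, against 56.0% of all tested genes. Without overlap 15 were higher, against 8.61% of all, and none lower, against 5.43%, and the median was 0.14. Without pairs 1 was called. Against 2.37% of all tested genes called higher, the paired fit called 5, all higher, among them Acaa2, Ucp2, Hadh and Eci2. Acaa2, the thiolase that ends a round of mitochondrial beta-oxidation, had 91.7, 110 and 84.5 RPKM on 60% fat and 63.7, 67.3 and 66.3 RPKM on 10% fat (0.52 ± 0.11, adjusted p = 0.0815, paired adjusted p = 0.0159). The mitochondrial carrier gene Ucp2 had 121, 136 and 158 RPKM on 60% fat and 95.8, 93.4 and 111 RPKM on 10% fat (0.46 ± 0.11, adjusted p = 0.12, paired adjusted p = 0.00968). Hadh, the dehydrogenase for short chains, had 70.1, 66.3 and 57.6 RPKM on 60% fat and 50.4, 50.7 and 43.6 RPKM on 10% fat, with a log2 difference of 0.42 ± 0.10 (adjusted p = 0.13, paired adjusted p = 0.0108). Without pair 1, 2 or 3, the paired fit called 3, 5 and 2 of the list.

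Other familiar PPAR targets passed neither fit. Pdk4, which turns down glucose use, had 11.5, 14 and 13.7 RPKM on 60% fat and 11.7, 11.3 and 12.5 RPKM on 10% fat, and Angptl4 and Plin2 overlapped between the diets too. The fatty acid transporter gene Cd36 stood at 582, 513 and 562 RPKM on 60% fat and 593, 525 and 529 RPKM on 10% fat (log2 difference 0.01 ± 0.09). The genes of the receptors themselves, Ppara, Ppard and Pparg, had log2 differences of -0.02, -0.08 and 0.07, none called in either fit. Genes of heart muscle, which is rich in oxidation enzymes and can be carried along with the vessels, were a little higher on 60% fat as well. All 13 tested had a positive difference, against 56.0% of all tested genes, and 6 were higher without overlap, against 8.61%. None of the 13 was called in either fit. Their sum was 670, 702 and 624 RPKM on 60% fat and 576, 439 and 547 RPKM on 10% fat. The cardiac myosin gene Myh6 overlapped, at 45.5, 29.9 and 32.7 RPKM on 60% fat and 36.2, 21.4 and 32.7 RPKM on 10% fat. Their part in the oxidation result was not tested.

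Genes for building fatty acids were lower on 60% fat in a few members. Scd1, which puts the first double bond into saturated fatty acids (chromosome 19, 44468940 to 44482199), had 385, 338 and 371 RPKM on 60% fat and 484, 635 and 842 RPKM on 10% fat. The 10% fat lungs varied widely but all lay above the 60% fat lungs, and the log2 difference was -0.81 ± 0.16 (adjusted p = 0.0729, paired adjusted p = 0.0213). Fasn, fatty acid synthase (chromosome 11, 120667272 to 120685861), had 51.2, 56.7 and 55.5 RPKM on 60% fat and 68.4, 80.2 and 84.0 RPKM on 10% fat (-0.50 ± 0.13, adjusted p = 0.146, paired adjusted p = 0.0364). Of 24 tested genes of the list none was called without pairs. Scd1, Fasn and Thrsp fell in the paired fit, against 1.13% of all tested genes. Without overlap 9 of the list were lower, against 5.43% of all, and none higher, and the median was -0.07. Acaca, the carboxylase before Fasn, had 13.8, 10.9 and 11.2 RPKM on 60% fat and 15.7, 15.9 and 13.9 RPKM on 10% fat, which did not pass either fit (-0.33 ± 0.11, adjusted p = 0.237, paired adjusted p = 0.0742). Srebf1, which encodes the SREBP1 factor upstream of these enzymes, overlapped between the diets, with 29.7, 32.3 and 27.8 RPKM on 60% fat and 29.3, 31.1 and 31.1 RPKM on 10% fat (-0.03 ± 0.08, 95% interval -0.20 to 0.14). Without pair 1, 2 or 3, the paired fit called 1, 0 and 0 genes of the list. None of 23 genes of cholesterol synthesis was called in either fit.

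**Figure D3:**
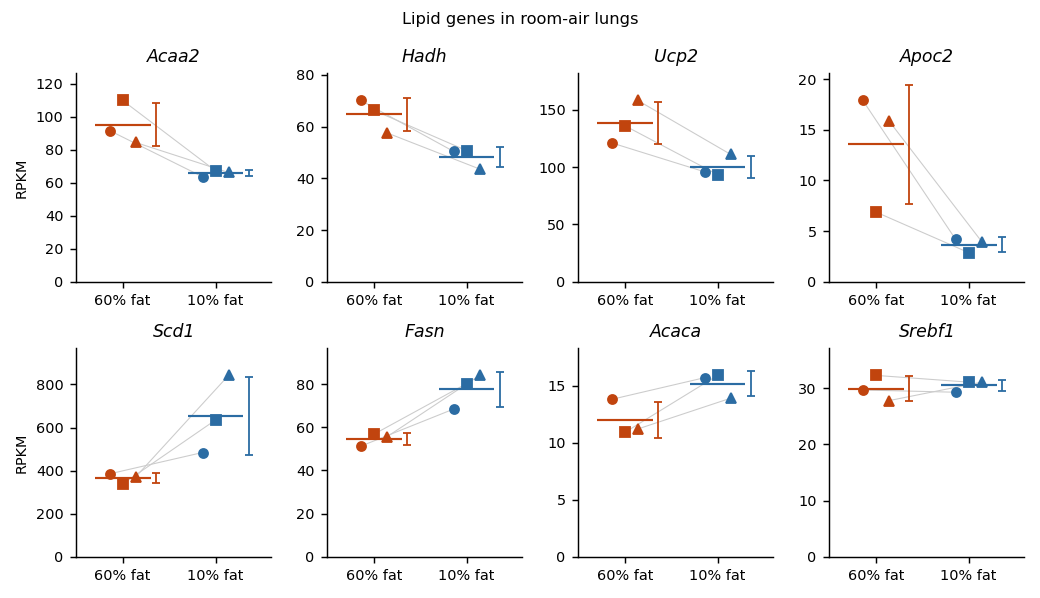
RPKM of 8 lipid genes in room-air lungs, with 60% fat left of 10% fat. Points are libraries with a shape for each replicate number, grey lines join lungs with the same number, horizontal bars are means and error bars are SD (n = 3). Acaa2, Hadh, Ucp2 and Apoc2 are higher on 60% fat without overlap, Scd1, Fasn and Acaca lower without overlap, and Srebf1 overlaps.

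Adipose and type 2 cell genes were looked at beside these. The adipocyte hormone gene Adipoq had 3.48, 6.77 and 3.26 RPKM on 60% fat and 4.17, 12.6 and 3.61 RPKM on 10% fat, highest in replicate 2 of both diets, and the 20 tested adipocyte genes summed to 299 to 361 RPKM on 60% fat and 293 to 498 RPKM on 10% fat. Thrsp, which promotes lipid synthesis in fat tissue, followed that library, with 3.35, 4.06 and 2.86 RPKM on 60% fat and 6.36, 19.1 and 4.87 RPKM on 10% fat (-1.21 ± 0.36, adjusted p = 0.202, paired adjusted p = 0.0469). The leptin gene Lep and the lipase gene Lipe rose in the paired fit, against 2.37% of all tested genes. The resistin gene Retn, Cfd and Thrsp fell in it, against 1.13% of all, so genes of the list moved both ways. Without pair 1, 2 or 3, however, the paired fit called 0 genes of the list higher and 1 lower each time. Lep was low throughout, at 0.796, 0.941 and 0.432 RPKM on 60% fat and 0.235, 0.354 and 0.119 RPKM on 10% fat. It reached the RPKM minimum of 1 only in oxygen libraries. While 56.0% of all tested genes were positive, 15 of 16 type 2 cell genes had a negative difference, with a median of -0.21 for the list. None was called without pairs, and 3 fell with pairs, against 1.13% of all tested genes. These were Scd1, Fasn and the collectin gene Sftpd (-0.40 ± 0.24, adjusted p = 0.544, paired adjusted p = 0.0327). The paired fit called 3, 0 and 0 of the list without pair 1, 2 and 3. Among members that take no part in fatty acid synthesis, the surfactant protein genes Sftpc, Sftpb and Sftpa1 had log2 differences of 0.02, -0.05 and -0.23, and the lamellar body gene Lamp3 and the phosphate carrier gene Slc34a2 had -0.27 each, none of which passed either fit. The part of adipose tissue and of type 2 cells in the Scd1 difference was not tested.

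Among lipoprotein genes, Apoc2, an activator of lipoprotein lipase (chromosome 7, 20256928 to 20262213), rose. It had 17.9, 6.89 and 15.9 RPKM on 60% fat and 4.18, 2.88 and 3.97 RPKM on 10% fat (log2 difference 1.66 ± 0.28, adjusted p = 0.0466). It was the only one of 21 tested genes of lipoproteins and lipid transport called in either fit, and its neighbours in function Apoe and Apoc1 differed by 0.25 ± 0.11 and 0.38 ± 0.14 (adjusted p = 0.412 and 0.301). Replicate 2 was the lowest of the 60% fat lungs for Apoc2, as for the B lineage genes. Ces2e, a carboxylesterase (chromosome 8, 107450160 to 107458572), had 1.90, 1.91 and 1.91 RPKM on 60% fat and 0.890, 0.776 and 0.680 RPKM on 10% fat (0.91 ± 0.16, adjusted p = 0.0488). Fabp1, a lipid-binding protein, rose with pairs, at 52.9, 48.9 and 27.9 RPKM on 60% fat and 19.6, 23.8 and 17.5 RPKM on 10% fat (1.03 ± 0.26, adjusted p = 0.137, paired adjusted p = 0.0108).

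Many genes of the cytosolic heat shock list and many chaperone genes of the endoplasmic reticulum were lower on 60% fat, in the paired fit. Despite its name, the first list also holds the mitochondrial chaperonin genes Hspd1 and Hspe1, and Hsf1. Promoters of 4 genes from the lists are shown because many members of both lists moved one way. They are taken from RefSeq (GRCm38.p6), run from 250 bases before to 50 after the start of transcription on the gene's strand, and carry in capitals the matches to the heat shock element GAANNTTCNNGAA (Hspd1, Chordc1) or the ER stress element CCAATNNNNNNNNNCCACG (Hsp90b1, Dnajc3), each searched on both strands.
Hspd1 (chr1:55087883-55088182, minus strand): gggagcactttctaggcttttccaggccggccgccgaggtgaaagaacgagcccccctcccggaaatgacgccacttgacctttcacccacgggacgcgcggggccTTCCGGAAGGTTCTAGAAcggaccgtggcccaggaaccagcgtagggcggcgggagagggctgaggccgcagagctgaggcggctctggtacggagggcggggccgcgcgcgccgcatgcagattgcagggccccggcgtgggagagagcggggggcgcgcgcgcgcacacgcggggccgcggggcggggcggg
Chordc1 (chr9:18292017-18292316, plus strand): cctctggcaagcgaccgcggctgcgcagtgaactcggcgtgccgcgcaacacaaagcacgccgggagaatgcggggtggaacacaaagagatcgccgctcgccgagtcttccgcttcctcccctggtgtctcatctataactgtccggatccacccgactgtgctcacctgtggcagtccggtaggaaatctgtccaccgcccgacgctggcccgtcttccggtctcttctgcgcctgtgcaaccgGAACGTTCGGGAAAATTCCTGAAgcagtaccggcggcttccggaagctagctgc
Hsp90b1 (chr10:86705395-86705694, minus strand): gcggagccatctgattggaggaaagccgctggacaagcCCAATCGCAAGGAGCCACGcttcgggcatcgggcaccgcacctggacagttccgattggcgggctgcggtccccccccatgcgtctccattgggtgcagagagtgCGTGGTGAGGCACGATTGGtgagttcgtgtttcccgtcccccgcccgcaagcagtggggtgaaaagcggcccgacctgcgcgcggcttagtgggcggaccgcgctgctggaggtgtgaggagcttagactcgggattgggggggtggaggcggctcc
Dnajc3 (chr14:118937682-118937981, plus strand): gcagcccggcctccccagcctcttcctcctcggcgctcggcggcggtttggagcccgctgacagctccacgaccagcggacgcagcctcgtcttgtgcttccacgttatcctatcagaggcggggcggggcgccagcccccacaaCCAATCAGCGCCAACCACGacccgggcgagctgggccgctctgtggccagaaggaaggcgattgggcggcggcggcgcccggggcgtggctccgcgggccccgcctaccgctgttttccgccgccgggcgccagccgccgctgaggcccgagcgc
The heat shock element was present in 4 of 14 cytosolic heat shock genes with a promoter in the table (Hsph1, Hspe1, Hspd1 and Chordc1), against 0.545% of 9916 tested genes with one, and overlapping matches were counted once per gene. Hspd1 and Hspe1 are read from one shared promoter in opposite directions, so they carry the same element. The ER stress element was present in 8 of 17 chaperones of the endoplasmic reticulum, against 0.161% of the 9916. A match describes these letters in this window and not a bound site. The motif shares were counted over whole lists, whatever the diet values, so they do not bear on the diet difference. Other motifs searched the same way were the octamer ATGCAAAT in 1 of 15 B lineage genes (1.58% of all), the E-box CACGTG in 4 of 16 clock genes (11.5%), TGACGTCA in 2 of 15 immediate early genes (3.44%) and AGGTCANAGGTCA in 0 of 29 oxidation genes (0.0202%).

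Of 19 tested genes of the cytosolic heat shock list, none was called without pairs. With pairs 11 fell, against 1.13% of all tested genes, and none rose. Without overlap 5 were lower, against 5.43% of all, and the median log2 difference was -0.65. Hspd1, the chaperonin of the mitochondrial matrix (chromosome 1, 55134678 to 55144776 in the deposited table), had 84.0, 133 and 94.2 RPKM on 60% fat and 145, 196 and 195 RPKM on 10% fat. All 60% fat lungs were below all 10% fat lungs, and the log2 difference was -0.79 ± 0.16 (adjusted p = 0.0815, paired adjusted p = 0.00672). Hspa4l, a nucleotide exchange factor for HSP70, had 31.0, 42.4 and 39.0 RPKM on 60% fat and 53.7, 78.3 and 80.6 RPKM on 10% fat (-0.90 ± 0.18, adjusted p = 0.0815, paired adjusted p = 0.00312). Hsph1, of the same family, overlapped, with 57.3, 155 and 73.6 RPKM on 60% fat and 155, 225 and 211 RPKM on 10% fat (-1.16 ± 0.35, adjusted p = 0.202, paired adjusted p = 0.0133). Hsp90aa1, the inducible HSP90, had 333, 657 and 438 RPKM on 60% fat and 639, 991 and 955 RPKM on 10% fat (-0.88 ± 0.23, adjusted p = 0.144, paired adjusted p = 0.00745). Chordc1, a cochaperone of HSP90, had 45.4, 61.1 and 46.5 RPKM on 60% fat and 74.3, 84.7 and 81.1 RPKM on 10% fat (-0.66 ± 0.14, paired adjusted p = 0.00745).

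The strongly inducible HSP70 genes and Hsf1 passed neither fit. Hspa1b had 19.6, 133 and 22.6 RPKM on 60% fat and 93.5, 110 and 71.1 RPKM on 10% fat, and Hspa1a, its near-identical copy, had 14.3, 78.2 and 11.6 RPKM on 60% fat and 53.7, 39.3 and 20.5 RPKM on 10% fat. The values of these copies are uncertain, since reads may be split between them. Hsf1 itself stood at 22.8, 24.9 and 22.5 RPKM on 60% fat and 23.8, 23.7 and 23.7 RPKM on 10% fat (log2 difference -0.02 ± 0.09). One lung stood apart: replicate 2 was the highest of the 60% fat lungs in all 19 genes, and the summed level was 3435, 6687 and 4126 RPKM on 60% fat and 5828, 7827 and 7794 RPKM on 10% fat. Without pair 1, 2 or 3, the paired fit called 4, 16 and 4 of the list, all lower. Over all tested genes it called 59, 222 and 18 lower.

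Chaperones of the endoplasmic reticulum were lower as well. Of 20 tested, none was called without pairs. With pairs 11 fell, against 1.13% of all tested genes, and none rose. Without overlap 8 were lower, against 5.43% of all, and the median was -0.31. Hspa5, the master chaperone BiP, had 293, 465 and 378 RPKM on 60% fat and 442, 590 and 711 RPKM on 10% fat (log2 difference -0.62 ± 0.17, adjusted p = 0.169, paired adjusted p = 0.017). Only replicate 2 on 60% fat reached into the range of the 10% fat lungs. Hsp90b1, which folds receptors and integrins, had 351, 384 and 382 RPKM on 60% fat and 413, 506 and 550 RPKM on 10% fat (-0.39 ± 0.10, adjusted p = 0.135, paired adjusted p = 0.0228). Dnajc3, an inhibitor of the kinase PERK, had 62.4, 61.5 and 66.6 RPKM on 60% fat and 74.0, 84.0 and 95.8 RPKM on 10% fat (-0.40 ± 0.09, adjusted p = 0.112, paired adjusted p = 0.024). Hyou1, another exchange factor, had 33.2, 44.6 and 38.8 RPKM on 60% fat and 47.4, 58.6 and 70.5 RPKM on 10% fat (-0.58 ± 0.14, paired adjusted p = 0.0179). Without pair 1, 2 or 3, the paired fit called 3, 8 and 0 of these chaperones. Genes under ATF4, a factor of the unfolded protein response, were called in neither fit, with 20 tested and a median of -0.09.

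**Figure D4:**
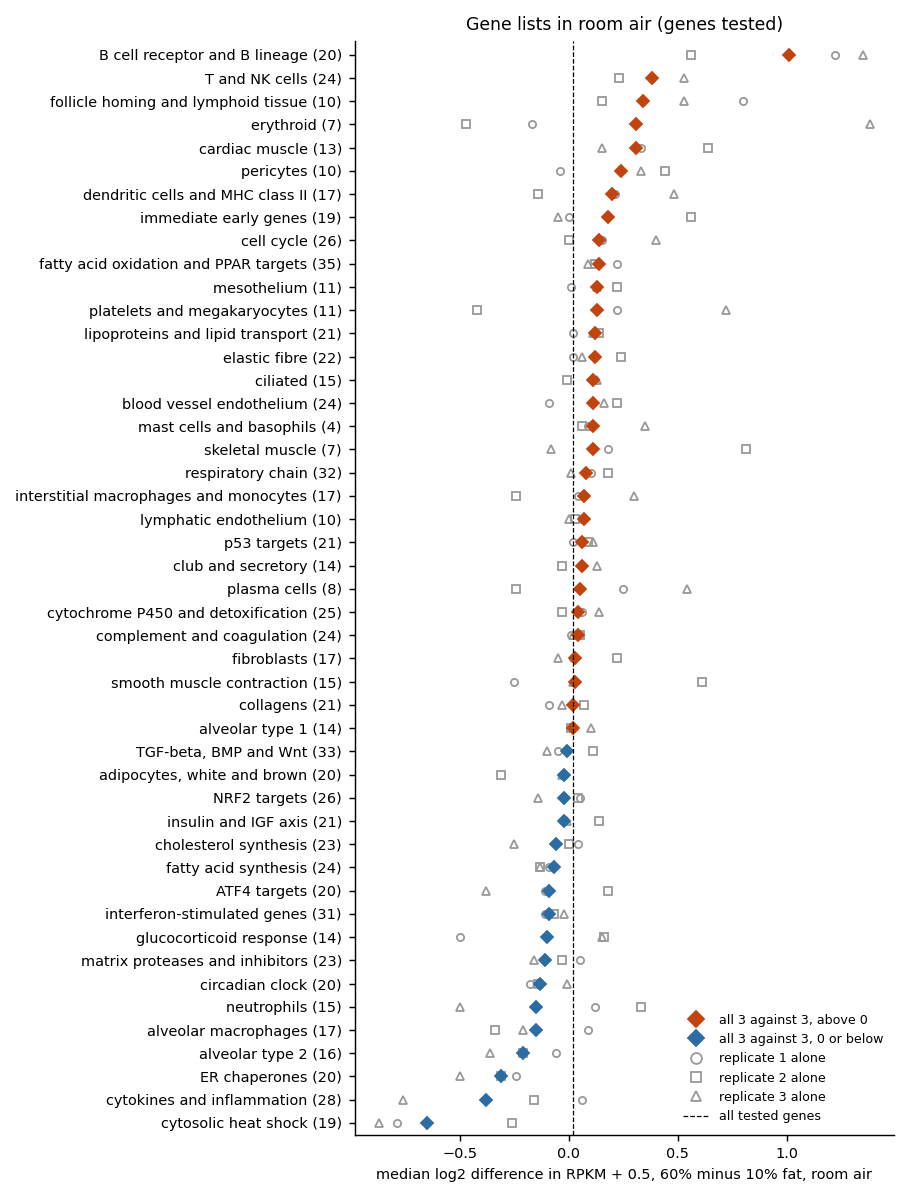
Median log2 difference of RPKM + 0.5, 60% minus 10% fat in room air, for each gene list (filled diamonds) and within each pair of equal replicate number (open markers), with the number of genes tested in brackets and the median of all tested genes as a dashed line. B lineage genes lie highest at 1.01 and cytosolic heat shock genes lowest at -0.65, and the pairs lie on one side of 0 for both.

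Among genes of matrix and vessels, a few single genes were called. Mfap4, a microfibril-associated protein of elastic fibres (chromosome 11, 61298946 to 61302206), had 1113, 905 and 685 RPKM on 60% fat and 403, 313 and 329 RPKM on 10% fat. The groups were well apart, with a log2 difference of 1.35 ± 0.17 (2.55-fold; adjusted p = 0.0138). Of 22 tested elastic fibre genes it was the only one called without pairs. With pairs 2 of the 22 rose, against 2.37% of all tested genes. The other was Fbln5, which helps to assemble elastic fibres, at 28.4, 28.4 and 28.1 RPKM on 60% fat and 23.9, 22.6 and 19.2 RPKM on 10% fat (0.37 ± 0.10, adjusted p = 0.166, paired adjusted p = 0.0347). The elastin gene Eln had 59.2, 48.9 and 52.4 RPKM on 60% fat and 50.0, 43.7 and 45.6 RPKM on 10% fat, which did not pass either fit (0.20 ± 0.11). None of 21 collagen genes was called in either fit. Mmp3, a matrix protease (chromosome 9, 7445822 to 7455974), fell, with 11.8, 18.6 and 14 RPKM on 60% fat and 24.0, 28.4 and 29.6 RPKM on 10% fat (-0.88 ± 0.14, adjusted p = 0.0313).

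Lyve1, the hyaluronan receptor of lymphatic endothelium and of some tissue macrophages (chromosome 7, 117994121 to 118006467), fell. It had 71.7, 99.0 and 88.5 RPKM on 60% fat and 197, 171 and 228 RPKM on 10% fat, a log2 difference of -1.20 ± 0.13 (2.29-fold lower; adjusted p = 0.00552). It was called in 24 of 25 alternative settings, all but the fit of room-air libraries alone, and the other 9 tested genes of lymphatic endothelium were called in neither fit. The lymphatic receptor gene Flt4 had 10.7, 8.27 and 8.22 RPKM on 60% fat and 10.9, 7.79 and 8.38 RPKM on 10% fat, and Mmrn1 had 9.16, 7.16 and 9.94 RPKM on 60% fat and 8.56, 8.63 and 8.13 RPKM on 10% fat. The other 16 tested genes of interstitial macrophages and monocytes, which share Lyve1, were called in neither fit, and Folr2 overlapped between the diets. Lyve1 was thus the only member of either list that passed a fit.

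Npr3, the receptor that clears natriuretic peptides (chromosome 15, 11769652 to 11835429), fell as well, with 14.3, 26.5 and 23.4 RPKM on 60% fat and 50.0, 53.8 and 66.6 RPKM on 10% fat (log2 difference -1.42 ± 0.22, adjusted p = 0.0308). Ntrk2, the receptor of the neurotrophin BDNF (chromosome 13, 58907957 to 59231328), rose, with 8.18, 5.88 and 6.37 RPKM on 60% fat and 2.36, 2.42 and 2.17 RPKM on 10% fat (1.36 ± 0.20, adjusted p = 0.0236). The 10% fat lungs of Ntrk2 lay close together, and every 60% fat lung stood well above them. Of 24 genes of blood vessel endothelium, none was called without pairs. With pairs Emcn and Vwf rose and Flt1 fell, against 2.37% and 1.13% of all tested genes. Without pair 1 the paired fit called 1 higher and 1 lower, without pair 2 it called 1 higher and 4 lower, and without pair 3 it called 0. Emcn, a sialomucin of capillaries and veins, had 59.7, 51.2 and 50.9 RPKM on 60% fat and 43.1, 36.2 and 25.9 RPKM on 10% fat (0.64 ± 0.17, adjusted p = 0.145, paired adjusted p = 0.024).

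Transporters and a few housekeeping genes made up most of the rest of the called genes. Slc7a1, the carrier of arginine and lysine (chromosome 5, 149138986 to 149211480), had 3.87, 3.68 and 4.03 RPKM on 60% fat and 5.89, 5.64 and 6.02 RPKM on 10% fat (log2 difference -0.54 ± 0.07, adjusted p = 0.0201). Slc5a3, the carrier of myo-inositol, had 2.31, 3.02 and 2.49 RPKM on 60% fat and 4.55, 5.21 and 5.14 RPKM on 10% fat (-0.82 ± 0.12, adjusted p = 0.0236). Its entry overlaps that of Mrps6 over 29138 bases, so that reads may be shared and the value is uncertain. Disp2, of the Dispatched family of hedgehog release proteins, had 3.50, 4.19 and 2.67 RPKM on 60% fat and 8.95, 7.16 and 11.1 RPKM on 10% fat (-1.27 ± 0.22, adjusted p = 0.0488). A3galt2, a glycolipid galactosyltransferase, was low, at 0.376, 0.392 and 0.318 RPKM on 60% fat and 1.10, 0.967 and 1.42 RPKM on 10% fat (-0.94 ± 0.15, adjusted p = 0.0313). Small and even rises were those of the translation initiation factor gene Eif3f, at 123, 123 and 119 RPKM on 60% fat and 96.1, 97.3 and 88.3 RPKM on 10% fat, and of the mitochondrial ribosome factor gene Rbfa, at 20, 17.7 and 18.9 RPKM on 60% fat and 14, 13.6 and 13.6 RPKM on 10% fat. Their log2 differences were 0.38 ± 0.06 and 0.44 ± 0.07 (adjusted p = 0.0419 and 0.0308).

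Genes that answer quickly to handling, and genes that follow the time of day, were checked beside these results. Of 19 immediate early genes none was called without pairs. With pairs 5 rose, against 2.37% of all tested genes, namely Nr4a1, Egr3, Fos, Zfp36 and Egr1. The receptor gene Nr4a1 had 35.9, 70.9 and 40.9 RPKM on 60% fat and 28.6, 15 and 14 RPKM on 10% fat (log2 difference 1.35 ± 0.28, adjusted p = 0.0861, paired adjusted p = 0.0416), while Jun, Junb and Atf3 overlapped between the diets. Without pair 1 or 3 the paired fit called 3 and 2 of the list higher, and without pair 2 it called 1 higher and 4 lower. Of 20 clock genes only Gm129, as the table names it, fell with pairs, against 1.13% of all tested genes. Gm129 had 7.84, 8.32 and 7.42 RPKM on 60% fat and 12.1, 12.1 and 10.2 RPKM on 10% fat (-0.52 ± 0.11, adjusted p = 0.0861, paired adjusted p = 0.0349). Per2 had 7.70, 10.5 and 10.7 RPKM on 60% fat and 13.9, 13.6 and 12.9 RPKM on 10% fat, which did not pass either fit (-0.47 ± 0.13, adjusted p = 0.164, paired adjusted p = 0.0601). The time of day at which lungs were taken is not given in the labels, and its part in these values was not tested.

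The lists of cytokines and of the insulin and IGF axis had no gene called without pairs and a few with pairs. Over all tested genes the paired fit called 2.37% higher and 1.13% lower, which stands beside each list here. Of 28 tested genes of cytokines and inflammation, 10 had a positive difference, against 56.0% of all tested genes. The list median was -0.38, and within pairs it was 0.06, -0.16 and -0.76 for replicates 1, 2 and 3. Ccl5 and the stromal chemokine gene Cxcl12 rose and the alarmin gene Il33 fell in the paired fit. Il33, which type 2 cells make in the mouse lung, had 47.6, 56.1 and 52.1 RPKM on 60% fat and 61.4, 81.9 and 122 RPKM on 10% fat (log2 difference -0.71 ± 0.20, adjusted p = 0.178, paired adjusted p = 0.0495). Cxcl12 had 75.3, 66.4 and 66.1 RPKM on 60% fat and 56.2, 47.3 and 51.2 RPKM on 10% fat (0.42 ± 0.13, adjusted p = 0.226, paired adjusted p = 0.0108). Without pair 1 the paired fit called 2 cytokine genes higher and 5 lower, without pair 2 it called 2 higher and 1 lower, and without pair 3 it called 2 higher and 0 lower. Of 21 genes of the insulin and IGF axis, the binding protein genes Igfbp2 and Igfbp5 rose and the growth factor gene Igf1 and the glucose carrier gene Slc2a1 fell in the paired fit. Slc2a1 had 12.1, 15.8 and 14 RPKM on 60% fat and 15.7, 17.7 and 19 RPKM on 10% fat (-0.31 ± 0.10, adjusted p = 0.208, paired adjusted p = 0.043). The paired fit called 2, 3 and 0 genes of this axis without pair 1, 2 and 3. Of 17 alveolar macrophage genes, Fabp1, which liver makes as well, and Spp1 rose in the paired fit, and without pair 1 that fit called 1 higher and 3 lower. None of 26 cell cycle genes and none of 32 genes of the respiratory chain was called in either fit. A positive difference was seen in 24 and 29 of them, against 56.0% of all tested genes. The list medians were 0.14 and 0.08, against 0.02 for all tested genes.

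The same diets were also compared under oxygen, in 6 other libraries, none of which enters the room-air difference. Under oxygen 1 gene was called without pairs (0.00751%), Dbn1, and 102 with pairs (0.766%). Of the 20 genes called in room air, 12 had the same sign under oxygen, against 49.7% of all genes tested. None of the 20 was called under oxygen without pairs, and 3 were called with pairs. Mfap4 was higher on 60% fat there as well (log2 difference 0.57, paired adjusted p = 0.0344), whereas Mmp3 and Disp2, lower on 60% fat in room air, were higher on it under oxygen (0.68 and 1.38, paired adjusted p = 0.0313 and 0.0283). The diet effect itself differed between room air and oxygen for 5 genes (0.0375%), namely Disp2, Mmp3, Lyve1, Slc7a1 and Sult1a1, and for 243 in the paired fit (1.82%), 124 of which were among the 466 called with pairs in room air. Without 60% fat replicate 2 or 10% fat replicate 1 the test without pairs gave 45 and 41 genes, without 10% fat replicate 2 it gave 2, and without replicate 3 of either diet it gave 0 (1357 and 959 at an unadjusted limma p under 0.05). Lyve1 was one of the 5, at -1.20 in room air and 0.08 under oxygen, where its levels were 746 RPKM on 60% fat and 706 RPKM on 10% fat.

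Among the lists, cytosolic heat shock genes had the most members with a different diet effect between exposures. Of the 19 cytosolic heat shock genes, 18 were negative in room air and 17 positive under oxygen, with a median of -0.65 in room air and 0.23 under oxygen, and the difference passed in the paired fit for 10 of them and without pairs for 0. Hspd1, for example, differed by -0.79 in room air and 0.29 under oxygen (paired adjusted p of the difference 0.0173). For chaperones of the endoplasmic reticulum the medians were -0.31 and 0.03, with 0 of 20 genes passing the test of the difference in either fit. B lineage genes were positive under oxygen too, in 19 of 20 cases with a median of 0.38, none of them called there in either fit. The difference between exposures passed in the paired fit for 2 of the 20, and Cd79b had log2 differences of 1.49 in room air and 0.36 under oxygen (paired adjusted p of the difference 0.0346). Of the 35 oxidation genes, 29 were positive in room air and 10 under oxygen, and 6 passed the paired test of the difference. Over all 13324 tested genes, 7462 were positive in room air, 7789 under oxygen, and 243 passed the paired test.

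**Figure D5:**
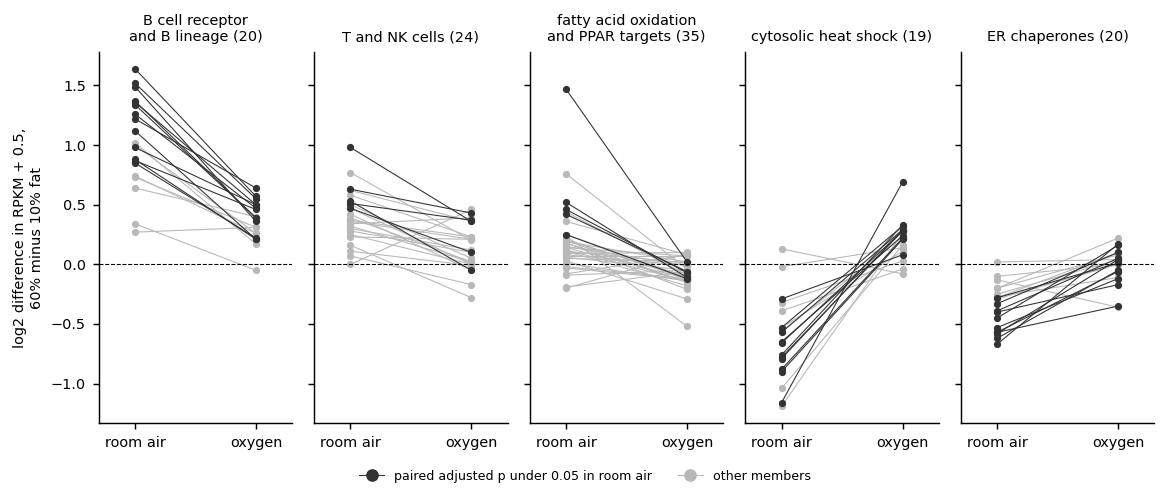
Log2 difference of RPKM + 0.5, 60% minus 10% fat, in room air (left) and under oxygen (right) for each gene of 5 lists, with the number of genes in brackets, lines joining the same gene and dark points marking genes with a paired adjusted p under 0.05 in room air. Cytosolic heat shock genes lie mostly below 0 in room air and above 0 under oxygen, while B lineage genes lie above 0 in both, at medians of 1.01 and 0.38.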

How the data were processed

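RNA-seq gave 12 libraries from whole mouse lung, 3 in each group of diet and exposure. The authors deposited one table of RPKM per gene and library. Per the submitters' processing notes, bcl2fastq 2.19 and TopHat2 2.0.11 were used and the builds mm8 and mm9 are named. The program that gave RPKM and the strandedness are not given in the sources used here. Positions in the table reach 152509964 on chromosome 7, past the end of that chromosome in mm8, and are read as mm9. Of 20793 entries, 208 that the table marks as low in data were dropped, 85 failed estimates in 26 entries were treated as missing, and 13346 reached an RPKM of 1 in 3 or more libraries. Of these, 13324 had enough values for a test, 7 of them with a missing room-air value, which the fit drops.

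Differences are on the log2(RPKM + 0.5) scale, which understates the change of low genes. They were fitted with limma 3.58.1 (R 4.3.3, trended variances, Benjamini-Hochberg adjustment over all tested genes, threshold 0.05) on all 12 libraries, which share 1 estimate of the spread. SE and 95% intervals come from this fit. The paired fit adds the replicate number as a block within each exposure. Lungs with the same number on the 2 diets deviated together in room air (r = 0.486, 0.348 and 0.386 across 13310 genes, against -0.269 to -0.138 for different numbers) and under oxygen (0.297, 0.293 and 0.367), so the numbers were taken to pair the samples. Each library's deviation was taken from its group mean, so positive values for equal numbers force negative ones for different numbers. The negative values are therefore not separate support for the pairing. This pairing comes from the data, and what a number stands for is not given in the labels. Depth is a rough value, since the table holds no counts, and no count test was run. It is the median, within a preset range, of the depth at which the RPKM of a long transcript equals 1 read. The genes, lists and tests were chosen with earlier results of these data known. Named genes are those called, the 12 largest differences in each direction in the paired fit among genes without overlap, up to 3 members of each list with the smallest unadjusted p under 0.05 and without overlap, and a few lipid, surfactant and lymphoid genes. The other members of lists were named after their values were seen. Scripts were tested on simulated data. Promoters are from RefSeq, GRCm38.p6. Alternatives included other pseudocounts, filters, scalings and variance models, room-air libraries alone and leaving out each lung. The paired fits with other scalings or without a pair, and the test between exposures without a lung, were chosen after seeing the data. A few single genes that enter the counts are not reported here.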

Additional observations from a re-analysis of the deposited data

Results flagged for a closer look

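The diet effect differed between room air and oxygen, by the interaction term of the limma fit, for 5 genes. Values are log2 differences of 60% minus 10% fat, and the difference is that in room air minus that under oxygen. Disp2 had -1.27 in room air and 1.38 under oxygen, a difference of -2.65 (adjusted p = 0.0198), and averaged 6.08 RPKM on 60% fat and 2.02 RPKM on 10% fat under oxygen. Mmp3 had -0.88 in room air and 0.68 under oxygen, a difference of -1.56 (adjusted p = 0.024), with 93.3 RPKM on 60% fat and 58.2 RPKM on 10% fat under oxygen. Lyve1 had -1.20 in room air and 0.08 under oxygen, a difference of -1.28 (adjusted p = 0.0309). Slc7a1 had -0.54 in room air and 0.16 under oxygen, a difference of -0.70 (adjusted p = 0.0483). Sult1a1, a sulfotransferase not called in room air, had 0.30 in room air and -0.65 under oxygen, a difference of 0.94 (adjusted p = 0.0282), with 35.0 RPKM on 60% fat and 55.3 RPKM on 10% fat under oxygen. Over 18 fits without pairs, these values kept their sign for all 5 genes, and the tests were passed in 15 fits by Disp2, 14 by Lyve1, 14 by Sult1a1, 13 by Mmp3 and 11 by Slc7a1, with none passing without replicate 3 of either diet in room air.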

How the results depend on the processing

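Against 20 called genes in room air, there were 7 with no filter, 37 with median-ratio scaling, 66 with quantile normalization, 441 with library weights, 1 with the room-air libraries alone, 466 with the replicate block, and 2 to 353 when 1 lung was left out. The paired count of 466 became 30 with the room-air libraries alone and 58 to 639 when a pair was left out (160, 639 and 58 without pair 1, 2 and 3). Under oxygen, against 1, there were 0 with a pseudocount of 0.1, with an RPKM minimum of 0.5, with quantile normalization and with no variance trend (1091, 1121, 1043 and 1082 at an unadjusted limma p under 0.05), 2 with an RPKM minimum of 5 or robust variances, 4 with no filter, 40 with library weights and 102 with the replicate block. Genes whose effect differed between exposures numbered 5, against 146 with library weights, 243 with the block and 0 to 45 when 1 lung was left out. No called gene changed sign in any of the 25 settings, and 362 of 495 values of called genes stayed past the threshold. Signs turned for 3 genes near 0. Over fits without 1 lung, Srebf1 lay between -0.08 and 0.02, Sftpb between -0.21 and 0.06, and Sftpc between -0.15 and 0.16. Srebf1 was 0.02 and 0.04 without replicate 3 of 60% fat and without pair 3. Sftpb was 0.06, 0.0 and 0.01 without replicates 1 and 3 of 60% fat and replicate 2 of 10% fat, and 0.01 without pair 3. Sftpc was -0.02, -0.0 and -0.12 with median-ratio scaling, quantile normalization and library weights, -0.15 and -0.13 without replicate 2 of 60% fat and replicate 1 of 10% fat, and -0.02, -0.0 and -0.07 in the paired fit with the scalings and without pair 2. The cause of these shifts was not tested. RPKM holds no counts, so the counting error of low genes is unknown.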
